A study of Mus musculus with 6 samples.

Results

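Glycolysis breaks glucose down to pyruvate, and the 10 genes described here stand at its entrance, along its course and at its exit: the glucose transporter Slc2a1, the hexokinases Hk1 and Hk2, the isomerase Gpi1, the phosphofructokinase Pfkl, the aldolase Aldoa, the phosphoglycerate kinase Pgk1, the enolase Eno1, the pyruvate kinase Pkm and the lactate dehydrogenase Ldha. They were chosen by name and matched to the gene names of the deposited annotation, which gave 10 genes of the 54532 in the count table. All 10 passed the filter on low counts, which 14624 genes passed. The name Aldoa belonged to 2 of the 11 gene IDs found; the second (ENSMUSG00000114515) held 32 counts over all libraries and was not used.

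The cells were primary bone marrow mesenchymal stem cells (BMSCs) from wild-type mice, adherent marrow cells that can become osteoblasts. All were kept for 7 days in osteogenic medium with dexamethasone, ascorbic acid and β-glycerophosphate, and the treated cultures also received 0.1 μM nickel (Ni), given by the study as NiCl2, whereas the control cultures received vehicle. RNA from 3 libraries of each group was sequenced, described by the submitters as independent biological replicates, although the number of mice behind them is not given in the sources used here. The labels and the study's methods give different dexamethasone concentrations. The comparison asks which transcripts of glycolysis differ when a low dose of Ni is present during mineralization.

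Glucose enters the cell through facilitative transporters and is trapped by hexokinase as glucose-6-phosphate, phosphofructokinase makes the committed step, and pyruvate kinase closes the pathway. Lactate dehydrogenase then turns pyruvate into lactate and restores the NAD+ that glycolysis needs. Cells of the osteoblast lineage are known for making much lactate even with oxygen present, and many of these genes are textbook targets of the hypoxia-inducible factor HIF-1.

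The libraries held from 16101033 to 18642504 counts. Control replicate 3 stood apart from the other controls: it was the highest control for 8 of the 10 genes and lay above at least 1 Ni library for 6 of them, but above all Ni libraries for none. Markers checked the labelled cell type. None of the 10 general stromal, 9 osteoblast and 13 macrophage markers was at 0 in any library, although the stromal marker Thy1 reached only 0.874 to 1.44 CPM. The macrophage markers summed to between 26068 and 31018 CPM (counts scaled to a common library size, with the TMM correction for library composition) and the general stromal markers to between 11864 and 27859 CPM, so abundant transcripts of both cell types were present. The largest parts were Lyz2, at 9616 to 15097 CPM, and Col1a1, at 4506 to 14381 CPM, so the sums alone say little about the other markers. Over the 6 libraries, the other macrophage markers averaged from 303 CPM (Itgam) to 2992 CPM (Adgre1). Of the other stromal markers, Col1a2 averaged 6350, Col3a1 1953 and Cxcl12 1781 CPM, and the rest from 1.18 CPM (Thy1) to 103 CPM (Dcn). No erythroid marker passed the filter, and the 6 neutrophil markers, of which S100a9 and Ltf were at 0 in every library, summed to at most 3.18 CPM. In bulk RNA, fewer cells of a type and less RNA per cell cannot be told apart.

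The 10 genes lie on 6 chromosomes, and the start regions of several carry the letters that HIF-1 is known to read. Windows of 300 bases, from 250 bases before to 50 bases after each annotated start, were taken from RefSeq (GRCm38.p6), which gave 17 windows for the 10 genes because some genes have several starts. The core ACGTG or GCGTG, on either strand, was found in 13 of the 17 windows and in 9 of the 10 genes, Gpi1 being the exception. It was found in 43.8% of all 32851 windows and in at least 1 window of 46.7% of all 27025 genes. Both forms of the core contain CG, and the windows of all genes were not matched for base composition. A gene with several windows has more chances of a match, and a match is a string of letters, not a measured binding site. The E-box CACGTG, which contains the core on both strands, was found in 1 of the 17 windows, that of Ldha, and in 7.15% of all windows. The 160 bases before a start are printed for 4 genes of different steps to show where the letters lie. Only stretches that hold a match were printed. Capitals mark ACGTG or GCGTG or their reverse complements CACGT and CACGC, run together where they overlap. The stretches are chr7:46845644-46845803 on the plus strand for Ldha, chrX:106186940-106187099 on the plus strand for Pgk1, chr10:78009808-78009967 on the minus strand for Pfkl and chr6:82774455-82774614 on the minus strand for Hk2. No annotated exon overlaps them, and those of Ldha and Pfkl precede starts inside the gene.
Ldha: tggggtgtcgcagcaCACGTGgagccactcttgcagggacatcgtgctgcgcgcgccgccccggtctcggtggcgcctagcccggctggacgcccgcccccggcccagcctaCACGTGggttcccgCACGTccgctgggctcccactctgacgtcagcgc
Pgk1: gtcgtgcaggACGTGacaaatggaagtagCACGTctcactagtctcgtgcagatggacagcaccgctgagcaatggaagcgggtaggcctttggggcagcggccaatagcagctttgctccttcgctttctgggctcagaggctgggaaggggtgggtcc
Pfkl: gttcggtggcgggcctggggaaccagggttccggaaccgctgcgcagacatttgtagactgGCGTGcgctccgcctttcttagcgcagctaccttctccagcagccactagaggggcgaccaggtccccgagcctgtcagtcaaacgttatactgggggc
Hk2: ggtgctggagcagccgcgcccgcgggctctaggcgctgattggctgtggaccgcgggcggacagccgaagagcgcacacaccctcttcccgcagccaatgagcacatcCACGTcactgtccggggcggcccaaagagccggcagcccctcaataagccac

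The data showed a shared tilt toward higher levels in the Ni libraries that did not pass the test. None of the 10 genes reached an adjusted p of 0.05 (quasi-likelihood test in edgeR, Benjamini-Hochberg adjusted over all genes tested, adjusted p from 0.306 to 0.987), and 0% of all 14624 genes did. At an unadjusted p under 0.05, 6 of the 10 genes were higher in the Ni libraries (Slc2a1, Hk1, Pfkl, Pgk1, Eno1 and Ldha), by 24.8% to 30.8%, beside 7.59% of all genes tested. None of the 10 was lower at that level, beside 5.83% of all genes. The Ni libraries lay wholly above the controls for 3 genes (Hk1, Eno1 and Pkm), beside 7.97% of all genes, and wholly below for none, beside 6.71%. The log2 fold changes ran from -0.01 to 0.39 with standard errors of 0.10 to 0.17, and their median of 0.33 compared with -0.01 over all genes tested. The genes move together and are not independent of each other, so these counts describe the list and do not test it.

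**Figure D1:**
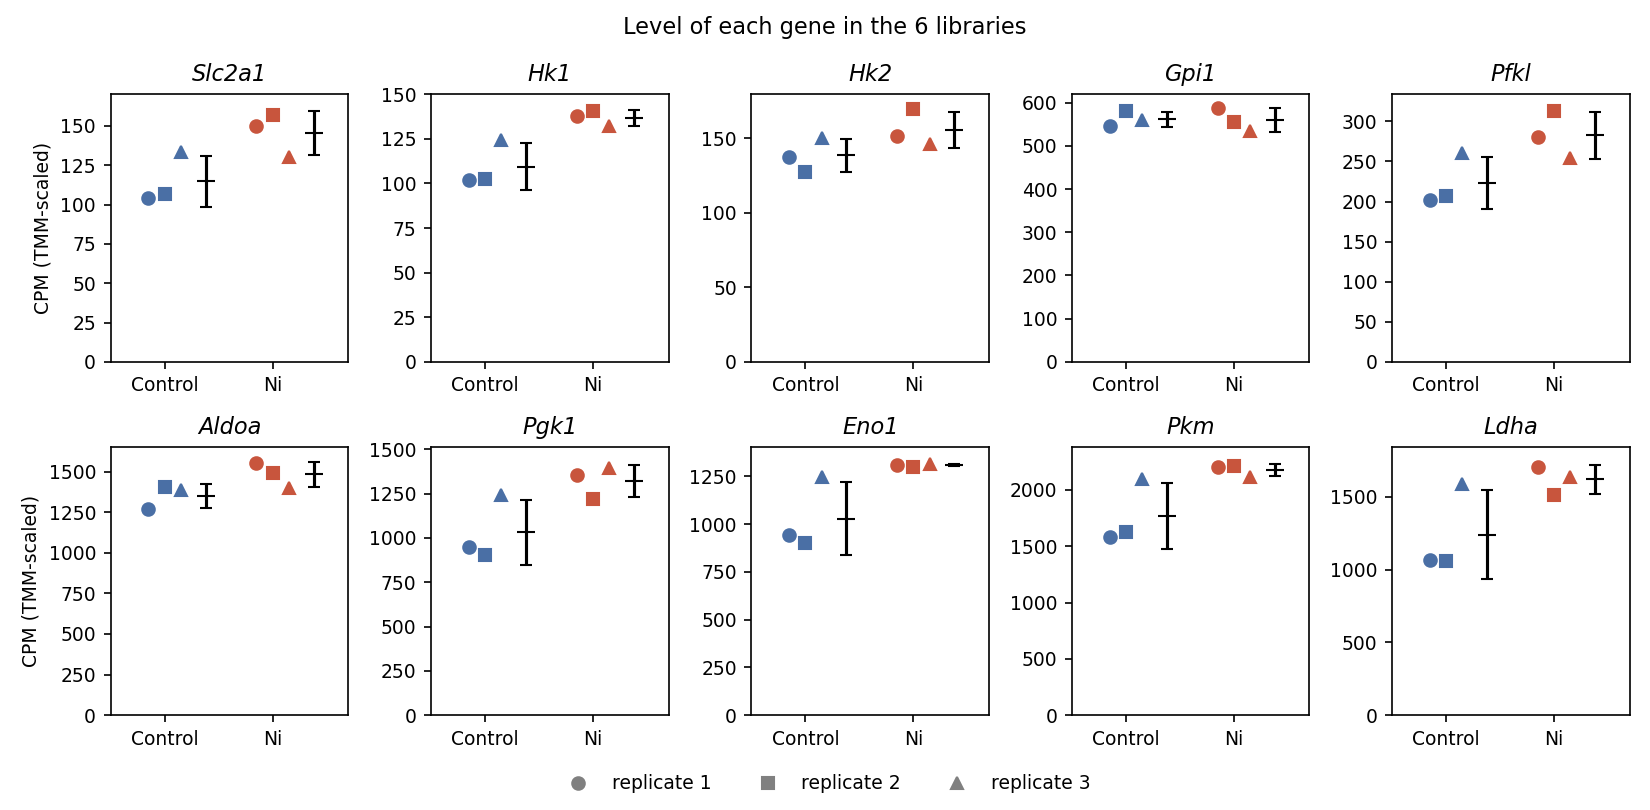
Level of each of the 10 genes in every library, in TMM-scaled CPM on axes that start at 0; symbols mark the replicate number, and the bar beside each group gives its mean ± SD (n = 3). Control replicate 3 (triangle) is the highest control for 8 genes, and the groups do not overlap for Hk1, Eno1 and Pkm.

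Slc2a1 (ENSMUSG00000028645, GRCm38 chr4:119108711-119137983, plus strand) encodes GLUT1, the widely expressed carrier of basal glucose uptake. It measured 104, 107 and 133 CPM in the controls and 149.7, 157 and 130.0 CPM in the Ni libraries, values being given here and throughout in the order of replicates 1 to 3. Control replicate 3 lay above Ni replicate 3, so the groups overlapped. The means were 115 ± 16.1 CPM and 145 ± 13.9 CPM (SD, n = 3), a log2 fold change of 0.34 (SE 0.12, 95% interval 0.07 to 0.61, edgeR adjusted p = 0.323). Among the facilitative glucose transporters counted (Slc2a1, Slc2a3, Slc2a4 and Slc2a6), Slc2a1 took 70.7%, 74.8% and 80.8% of the summed FPKM (reads scaled by library size and by exon length, a level per length) in the controls and 81.3%, 85.7% and 80.0% in the Ni libraries. These shares overlapped (difference 6.86 percentage points, exact two-sided permutation test, p = 0.2; the smallest p for 3 against 3 is 0.1), and the difference was 4.48 percentage points without control replicate 1. Slc2a6, a transporter of lysosomes, held the next largest share, at 17.0% ± 4.13 in the controls and 11.03% ± 1.91 in the Ni libraries (SD, n = 3).

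Hexokinase commits glucose to the cell. Hk1 (ENSMUSG00000037012, chr10:62268855-62379908, minus strand), the constitutive form that binds mitochondria, measured 102, 102 and 124 CPM in the controls. It measured 138, 140.5 and 132 CPM in the Ni libraries, all above the controls. Its log2 fold change of 0.32 (SE 0.10, 95% interval 0.09 to 0.55) had the smallest adjusted p of the 10 genes, 0.306 in edgeR. Hk2 (ENSMUSG00000000628, chr6:82725025-82774454, minus strand), the inducible form of muscle and growing cells, measured 138, 128 and 150.3 CPM in the controls and 152, 169.5 and 146 CPM in the Ni libraries. The Hk2 groups overlapped through control replicate 3 and Ni replicate 3, and the log2 fold change was 0.17 (SE 0.10, edgeR adjusted p = 0.497).

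The most abundant hexokinase per length was neither of these but Hk3, a form found mainly in myeloid cells. Hk3 took 70.1%, 74.7% and 58.6% of the summed hexokinase FPKM in the controls and 58.0%, 56.9% and 57.4% in the Ni libraries, which lay below every control by a narrow margin (difference -10.4 percentage points, exact two-sided permutation test, p = 0.1). The Hk1 share was 11.5% ± 3.25 in the controls and 16.2% ± 0.349 in the Ni libraries (SD, n = 3), without overlap (exact permutation test, p = 0.1), and the Hk2 share was 20.7% ± 5.09 and 26.3% ± 0.831, with overlap (exact permutation test, p = 0.3). The shares of a library are parts of the same sum, so these comparisons are not independent of each other. The difference in the Hk2 share, 5.64 percentage points, was 3.37 without control replicate 2 and 8.39 without control replicate 3. Hk3 itself measured 302, 365 and 208 CPM in the controls and 212, 218 and 198 CPM in the Ni libraries, a log2 fold change of -0.48 (SE 0.18, edgeR adjusted p = 0.337). The spread of the control shares came from control replicate 3, whose hexokinase shares sat beside those of the Ni libraries. The 13 macrophage markers averaged, on the log2 scale and relative to the control mean, -0.04, 0.06 and -0.02 in the controls and -0.17, -0.13 and -0.23 in the Ni libraries; their part in the hexokinase shares was not tested.

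**Figure D2:**
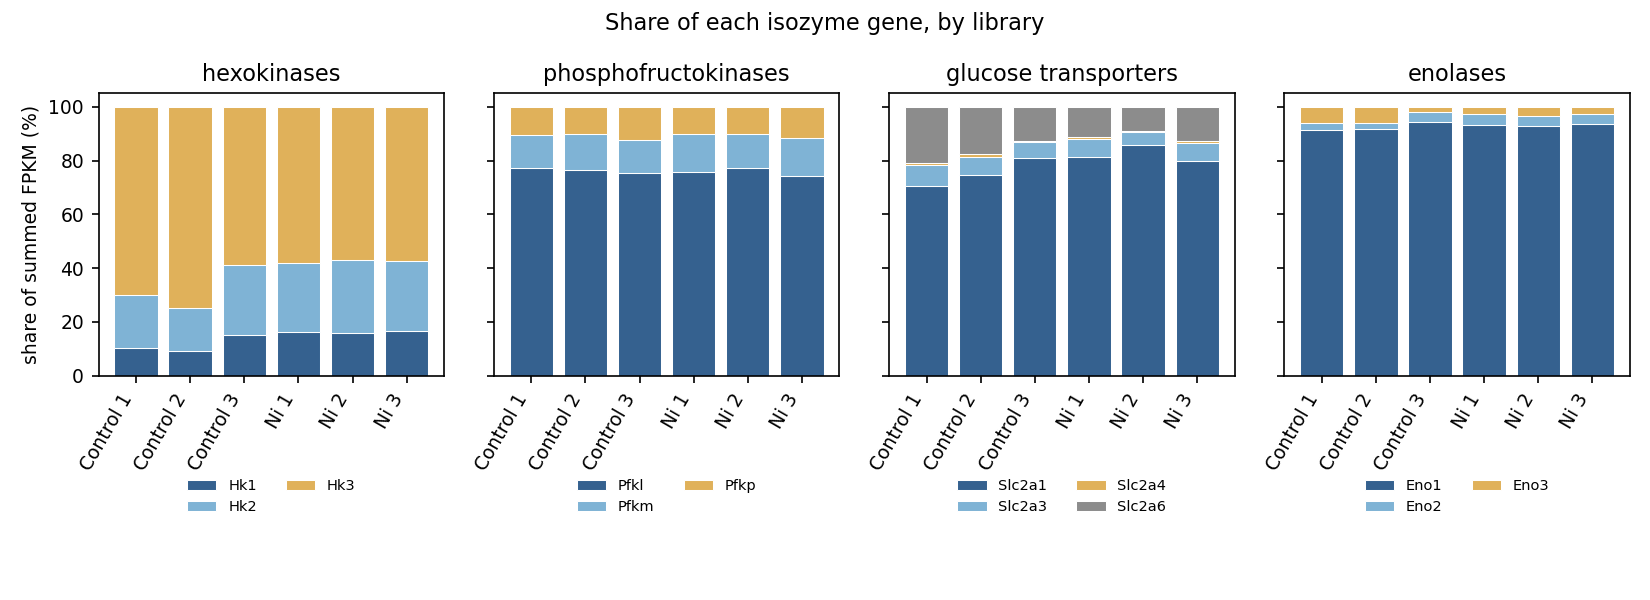
Share of the summed FPKM (percent, 0 to 100) that each gene of an enzyme family takes in each library, for hexokinases, phosphofructokinases, glucose transporters and enolases. Hk3 holds over 50% of hexokinase FPKM in every library, and the column of control replicate 3 resembles those of the Ni libraries.

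Gpi1, which turns glucose-6-phosphate into fructose-6-phosphate, had the estimate nearest to 0 (ENSMUSG00000036427, chr7:34201330-34230336, minus strand). It measured 545, 579 and 560.3 CPM in the controls and 589, 556 and 533 CPM in the Ni libraries. The highest and the lowest value both belonged to the Ni group, and the log2 fold change was -0.01 (SE 0.10, edgeR adjusted p = 0.987). The 95% interval of -0.23 to 0.22 bounds the Ni level between 0.852 and 1.16 times the control level, so a difference of the size seen in Hk1 or Ldha lies outside it.

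Pfkl, the liver-type subunit of phosphofructokinase, catalyses the committed step (ENSMUSG00000020277, chr10:77986947-78010083, minus strand). It measured 202, 207 and 260.2 CPM in the controls and 281, 313 and 254 CPM in the Ni libraries. As for Slc2a1, control replicate 3 lay above Ni replicate 3 and below the other Ni libraries. The means of 223 ± 32.3 CPM and 283 ± 29.4 CPM (SD, n = 3) gave a log2 fold change of 0.34 (SE 0.13, 95% interval 0.05 to 0.63, edgeR adjusted p = 0.334). Pfkl held 76.3% ± 0.962 of the phosphofructokinase FPKM in the controls and 75.8% ± 1.56 in the Ni libraries (SD, n = 3), with the muscle-type Pfkm and platelet-type Pfkp sharing the rest, and this share did not separate the groups (exact two-sided permutation test, p = 0.7).

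Aldoa, which splits fructose-1,6-bisphosphate, had a smaller log2 fold change than Pfkl, as Hk2 did (ENSMUSG00000030695, chr7:126795234-126800751, minus strand). Over the 6 libraries its log2 CPM followed that of Pfkl (Pearson's r = 0.78) more closely than that of Hk2 (r = 0.54). Aldoa measured 1268, 1405 and 1383 CPM in the controls and 1554, 1492 and 1401 CPM in the Ni libraries. Control replicate 2, not 3, was the highest control and lay just above Ni replicate 3. The log2 fold change was 0.13 (SE 0.11, 95% interval -0.12 to 0.39, edgeR adjusted p = 0.644), and Aldoa held at least 98.2% of the aldolase FPKM in every library.

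The steps from triose to pyruvate had log2 fold changes of 0.36 (Pgk1), 0.35 (Eno1) and 0.30 (Pkm), and control replicate 3 again lay near the Ni libraries. Pgk1, which yields the first ATP of the pathway (ENSMUSG00000062070, chrX:106187100-106203699, plus strand), measured 950.1, 904 and 1239.5 CPM in the controls and 1355, 1219.6 and 1393 CPM in the Ni libraries. Only control replicate 3 reached into the Ni range, by passing Ni replicate 2. The log2 fold change was 0.36 (SE 0.14, 95% interval 0.04 to 0.68, edgeR adjusted p = 0.344). Of the 50-base stretches of Pgk1 transcripts, 53.8% also occur in the retrocopy Pgk1-rs7, which held 387 counts over all libraries beside 123772 for Pgk1; how reads shared by such copies were counted is not given in the sources used here.

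Eno1, which makes phosphoenolpyruvate, had the tightest Ni group of the 10 genes relative to its controls (ENSMUSG00000063524, chr4:150236721-150248879, plus strand). It measured 940.2, 899 and 1247 CPM in the controls and 1311, 1301 and 1312 CPM in the Ni libraries. All Ni libraries lay above all controls, but the SD was 190.4 CPM among the controls and 6.02 CPM among the Ni libraries. The log2 fold change was 0.35 (SE 0.14, 95% interval 0.03 to 0.66, edgeR adjusted p = 0.350). The near-copy Eno1b, which shares 25.3% of the 50-base stretches of Eno1, held from 7.33% to 12.9% of the counts of the pair, so part of the signal cannot be assigned with certainty. With both summed, the controls measured 1067, 999 and 1389 CPM and the Ni libraries 1504, 1404 and 1496 CPM, still without overlap. Eno1 held 92.4% ± 1.61 of the enolase FPKM (Eno1, Eno2 and Eno3) in the controls and 93.3% ± 0.275 in the Ni libraries (SD, n = 3; exact two-sided permutation test, p = 0.4).

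Pkm, the pyruvate kinase of most tissues outside the liver (ENSMUSG00000032294, chr9:59656368-59679375, plus strand), measured 1582, 1622 and 2102 CPM in the controls. It measured 2203, 2217 and 2119 CPM in the Ni libraries, which cleared control replicate 3 by a small margin. Its log2 fold change was 0.30 (SE 0.14, 95% interval -0.01 to 0.61, edgeR adjusted p = 0.379). The table gives 1 value for the gene, so the M1 and M2 splice forms of Pkm were not distinguished. The liver and red cell gene Pklr was listed at 0 in every library. Gm49759, an annotated gene on the same strand, overlaps 15.3% of the exon bases of Pkm and held 4067 counts over all libraries beside 207202 for Pkm.

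Ldha, which makes lactate from pyruvate, showed the largest log2 fold change of the 10 genes and the widest control spread (ENSMUSG00000063229, chr7:46841475-46855627, plus strand). It measured 1067, 1060.1 and 1591 CPM in the controls and 1707, 1515 and 1639.6 CPM in the Ni libraries. Control replicates 1 and 2 were nearly equal, whereas control replicate 3 lay within the Ni range. The means of 1239 ± 305 CPM and 1620 ± 97.2 CPM (SD, n = 3) gave a log2 fold change of 0.39 (SE 0.17, 95% interval 0.01 to 0.76, edgeR adjusted p = 0.364). Ldha held at least 96.1% of the lactate dehydrogenase FPKM in every library, the rest being Ldhb, and Ldhc was listed at 0.

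Levels of different genes can be compared only per length. By mean FPKM over the 6 libraries, Pgk1 (521), Aldoa (484), Ldha (429) and Pkm (392) led, and neighbours in this order had overlapping ranges. Eno1 followed at 216 FPKM, below Pkm in all 6 libraries and with no overlap of their ranges. Gpi1 measured 86.3 FPKM, clear of its neighbours on both sides. Pfkl (37.6 FPKM) and Slc2a1 (36.9 FPKM) could not be ordered beyond their spread, and Hk2 (24.5 FPKM) and Hk1 (14.3 FPKM) were the lowest, each below its upper neighbour in all 6 libraries. The highest mean was 36.4 times the lowest. FPKM here divides by the union of all exons of a gene, which understates genes with long exons that few transcripts use.

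Together the 10 genes took 0.694%, 0.692% and 0.884% of all counts in the controls, in replicate order, and 0.933%, 0.908% and 0.912% in the Ni libraries. Their mean log2 level relative to the control mean was -0.11, -0.10 and 0.20 in the controls and 0.31, 0.30 and 0.22 in the Ni libraries. The difference between control replicate 3 and the other controls was thus close to that between the Ni libraries and those controls. Over the 6 libraries, Pearson's r between log2 CPM of pairs of the 10 genes had a median of 0.84 in 45 pairs. Without Gpi1 the median was 0.91 in 36 pairs (0.54 to 0.99), and the 9 pairs with Gpi1 had a median of 0.00 (-0.14 to 0.58). Slc2a1 and Pfkl were the closest pair (r = 0.99). These correlations describe 6 libraries that share the group difference and the position of control replicate 3. Outside the listed genes, the genes whose log2 CPM was most like the mean of the 10 over the 6 libraries were Mif (r = 0.997), Aebp1 (0.996), Gpr180 (0.995), Nfatc4 (0.995) and Nbas (0.993), of 14500 ranked. Of all 14624 genes tested, the listed ones included, 428 had an r of at least 0.95, so likeness in 6 libraries does not single genes out.

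Other genes of the pathway lay on both sides of the controls. Of 21 other glycolysis genes, 15 were tested, and none passed an adjusted p of 0.05 in edgeR. At an unadjusted p under 0.05, 4 were higher in the Ni libraries, beside 7.59% of all genes, and 2 were lower, beside 5.83%. The median log2 fold change was 0.15. The 2 lower genes were Hk3 (-0.48) and Slc2a6. Slc2a6 measured 28.2, 23.0 and 19.14 CPM in the controls and 18.9, 15.1 and 19.11 CPM in the Ni libraries (log2 fold change -0.40, SE 0.16, edgeR adjusted p = 0.347). Pfkm, the muscle-type phosphofructokinase, measured 16.1, 18.2 and 21.7 CPM in the controls and 26.1, 25.3 and 24.6 CPM in the Ni libraries (log2 fold change 0.44, SE 0.13, edgeR adjusted p = 0.293). Pgam1, the phosphoglycerate mutase between Pgk1 and Eno1, measured 504, 497 and 576 CPM and 687, 638 and 650.4 CPM (log2 fold change 0.32, SE 0.11, edgeR adjusted p = 0.309). The Ni libraries lay wholly above the controls for 4 of the 15 genes (Pfkm, Pgam1, Tpi1 and Eno2), beside 7.97% of all genes. They lay wholly below for 1 (Slc2a6), beside 6.71%. Tpi1, the triosephosphate isomerase, had a log2 fold change of 0.36 (SE 0.14, edgeR adjusted p = 0.339). Eno2, the neuronal-type enolase, measured 23.8, 21.2 and 42.5 CPM and 50.0, 45.4 and 44.9 CPM, with control replicate 3 just under the Ni libraries (log2 fold change 0.68, SE 0.24, edgeR adjusted p = 0.334).

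**Figure D3:**
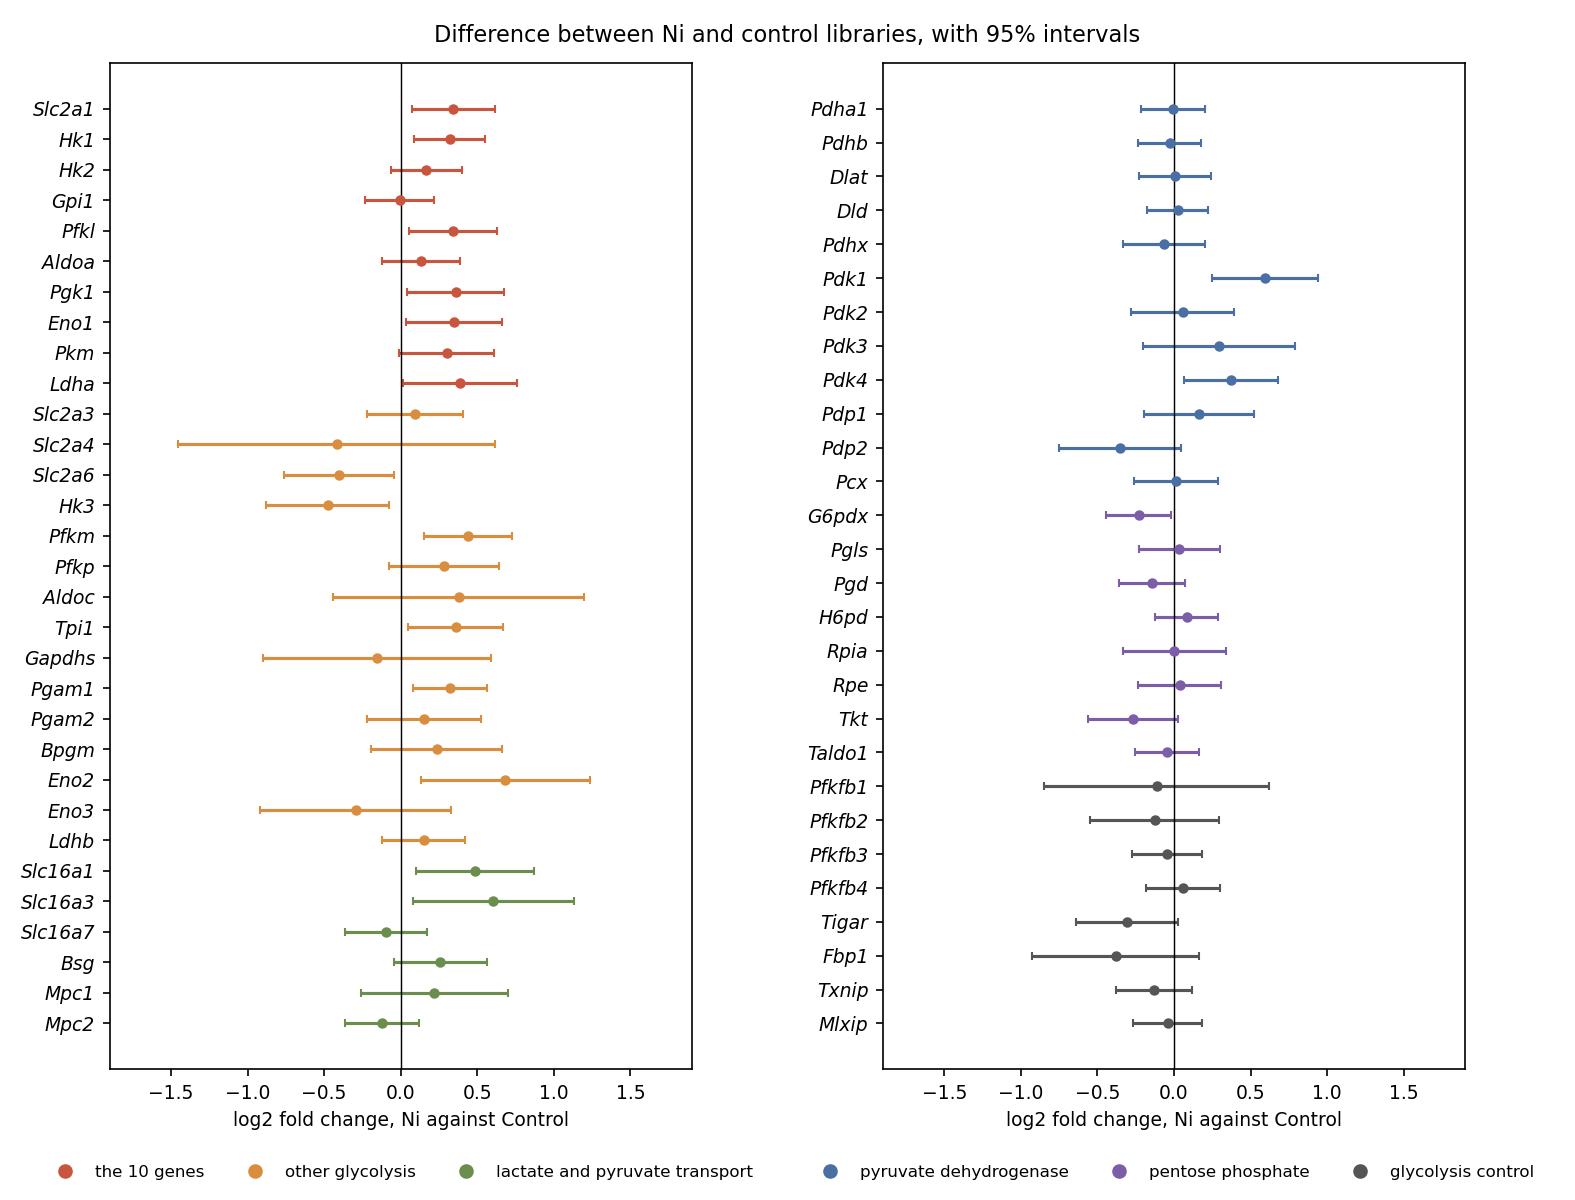
Log2 fold change of Ni against control libraries with its 95% interval (edgeR, 3 libraries a group) for the 10 genes and for the tested genes of related lists; the vertical line marks no difference. The intervals of 6 of the 10 genes exclude 0, and that of Gpi1 spans -0.23 to 0.22.

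Downstream of Ldha, the lactate exporters Slc16a1 and Slc16a3 lay higher in the Ni libraries than in control replicates 1 and 2. For both, control replicate 3 lay within the range of the Ni libraries. Slc16a1 (MCT1) measured 27.7, 26.2 and 41.6 CPM in the controls and 49.3, 41.3 and 43.2 CPM in the Ni libraries (log2 fold change 0.49, SE 0.17, edgeR adjusted p = 0.323). Slc16a3 (MCT4) measured 95.3, 103 and 182 CPM and 198, 201 and 179 CPM (log2 fold change 0.61, SE 0.23, edgeR adjusted p = 0.342). They were the 2 of 6 lactate and pyruvate transport genes at an unadjusted p under 0.05, beside 7.59% of all genes higher at that level. The median of the 6 was 0.24, with 4 positive and 2 negative log2 fold changes. Slc16a7, another monocarboxylate transporter, had a log2 fold change of -0.09 (SE 0.12, edgeR adjusted p = 0.774).

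At the branch into mitochondria, Pdk1 stood out from the pyruvate dehydrogenase genes. Pdk1, a kinase that switches pyruvate dehydrogenase off, measured 56.3, 54.3 and 80.9 CPM in the controls and 104, 87.1 and 97.8 CPM in the Ni libraries. All Ni libraries lay above all controls (log2 fold change 0.59, SE 0.15, edgeR adjusted p = 0.262). Pdk4, a kinase of the same family, measured 69.3, 69.7 and 92.0 CPM and 108, 84.8 and 106 CPM, with overlap (log2 fold change 0.37, SE 0.14, edgeR adjusted p = 0.334). Both kinases were higher at an unadjusted p under 0.05, 2 of the 12 genes of this list, beside 7.59% of all genes. The list had a median of 0.02 and gave no gene that was lower at that level of p, beside 5.83% of all genes.

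The pentose phosphate branch, which draws off glucose-6-phosphate, gave a median log2 fold change of -0.02 over 8 genes. G6pdx, its entry enzyme, was the only gene of the 8 lower at an unadjusted p under 0.05, beside 5.83% of all genes. None was higher, beside 7.59%. G6pdx measured 222, 210.5 and 198 CPM in the controls and 185, 169 and 183 CPM in the Ni libraries (log2 fold change -0.23, SE 0.10, edgeR adjusted p = 0.353). The Ni libraries lay wholly below the controls for 2 of the 8, G6pdx and Pgd, beside 6.71% of all genes, and wholly above for none, beside 7.97%. Pgd had a log2 fold change of -0.14 (SE 0.10, edgeR adjusted p = 0.548). A further list held 10 other genes linked to the control of glycolysis, such as the Pfkfb enzymes, the fructose-1,6-bisphosphatases and Txnip. Of these, 8 were tested and none reached an unadjusted p of 0.05 in either direction (median -0.12). The Ni libraries lay wholly below the controls for 1 of the 8, Tigar, beside 6.71% of all genes, and wholly above for none, beside 7.97%.

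Hypoxia genes outside glycolysis were listed because many of the 10 genes share that regulator. The list held 13 known targets and the factors Hif1a and Epas1. None of the 15 passed an adjusted p of 0.05 in edgeR. Of the 13 targets, 9 were higher at an unadjusted p under 0.05, beside 7.59% of all genes, and 2 were lower, beside 5.83%. The median log2 fold change of the targets was 0.49, whereas with the factors the median was 0.43. The Ni libraries lay wholly above the controls for 5 of the 15 genes, beside 7.97% of all genes, and wholly below for none, beside 6.71%. Hif1a had a log2 fold change of 0.21 and Epas1 one of -0.22 (edgeR adjusted p = 0.567 and 0.413). The 4 with the smallest p were P4ha1 and P4ha2, subunits of collagen prolyl hydroxylase (log2 fold change 0.71 and 0.81, edgeR adjusted p = 0.292 and 0.295), Egln1, an oxygen sensor of the HIF pathway (0.43, edgeR adjusted p = 0.295), and Bnip3, a mitophagy receptor (0.70, edgeR adjusted p = 0.306). For Bnip3, control replicate 3 lay within the Ni range. The 2 that were lower were Ndrg1 (-1.01, edgeR adjusted p = 0.344) and Adm (-0.28, edgeR adjusted p = 0.347), also textbook targets, so the list held genes of both signs. Ndrg1 measured 974, 1051 and 366 CPM in the controls and 405, 458 and 329 CPM in the Ni libraries. For both Ndrg1 and Adm, control replicate 3 lay within the Ni range.

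Markers of cell type differed between the libraries beside the 10 genes. The 9 osteoblast markers averaged, relative to the control mean on the log2 scale, -0.26, -0.39 and 0.65 in the controls and 1.42, 0.81 and 1.49 in the Ni libraries, and their summed level ran from 5317 to 11944 CPM and from 11229 to 16350.0 CPM. The 10 general stromal markers averaged -0.15, -0.10 and 0.26 in the controls and 0.50, 0.25 and 0.46 in the Ni libraries. The 7 proliferation markers averaged 0.16, -0.35 and 0.19 and then 0.25, 0.07 and 0.36. Control replicate 3 was the highest control for all of these lists, as it was for the mean of the 10 genes. At an unadjusted p under 0.05, 9 of 9 osteoblast markers were higher, beside 7.59% of all genes, with a median log2 fold change of 1.07. Macrophage markers gave none higher and 4 of 13 lower, beside 5.83% of all genes lower, with a median of -0.19. The part of these shifts in the differences of the glycolysis genes was not tested.

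**Figure D4:**
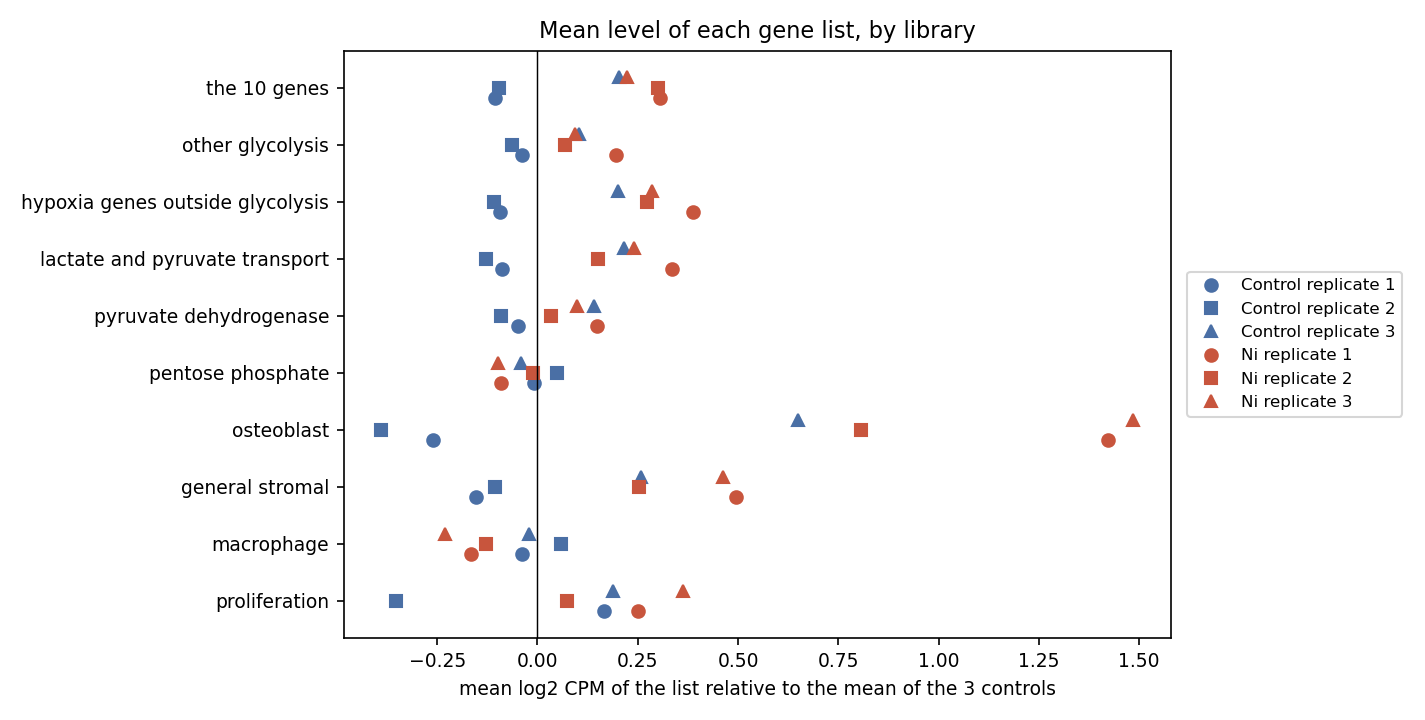
Mean log2 CPM of each gene list relative to the mean of the 3 controls, with 1 symbol per library (blue, controls; red, Ni). For the 10 genes control replicates 1 and 2 lie at -0.11 and -0.10, and control replicate 3 lies at 0.20, beside the Ni libraries at 0.22 to 0.31.

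How far the 10 genes differed between the groups depended on control replicate 3. Without it, 7 of the 10 genes (Slc2a1, Hk1, Pfkl, Pgk1, Eno1, Pkm and Ldha) were higher at an adjusted p under 0.05 in edgeR (adjusted p from 0.000727 to 0.00756), beside 8.69% of the 15044 genes tested in that fit. Their log2 fold changes were then from 0.43 (Hk1) to 0.61 (Ldha), and the groups did not overlap for 8 of the 10 genes, beside 22.2% of all genes. Gpi1 and Aldoa were the exceptions. With all 6 libraries but no filter on low counts, Ldha alone passed (1 of the 10 genes, edgeR adjusted p = 0.0381), beside 2.55% of all genes in that direction. Leaving out any other library gave no gene of the 10 at an adjusted p under 0.05. The number at an unadjusted p under 0.05 fell from 6 to between 0, without control replicate 1, and 3, without Ni replicate 3. The share of all genes higher at that level was 4.07% and 4.64% in those fits, beside 7.59% with all 6 libraries. Without Ni replicate 2 the number fell to 2, whereas the share of all genes was 8.32%. Apart from Gpi1, every gene kept a positive log2 fold change whichever library was left out. Control replicate 3 is labelled as a control, and no label gives a reason to leave it out.

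**Figure D5:**
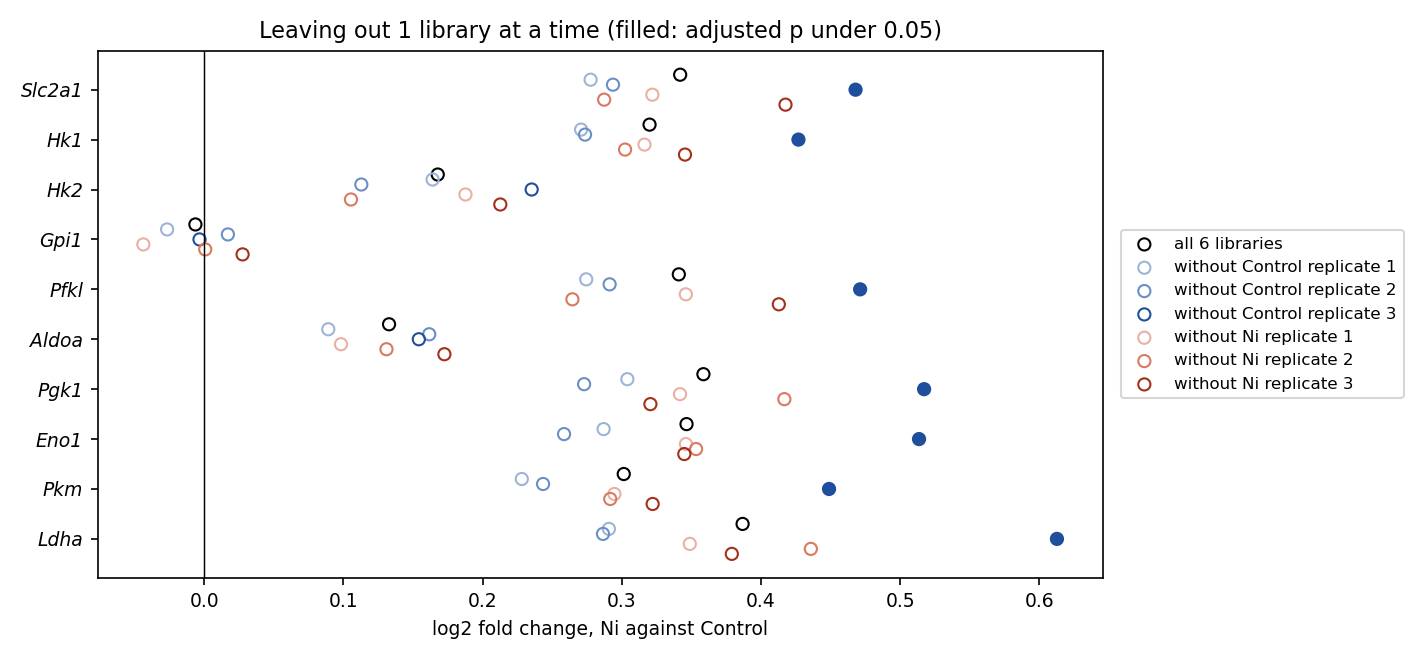
Log2 fold change of each of the 10 genes with all 6 libraries and with each library left out in turn; filled circles mark an adjusted p under 0.05 (edgeR). Only the fits without control replicate 3 hold filled circles, for 7 genes, and Gpi1 stays near 0 in every fit.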

How the data were processed

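RNA-seq counts of 3 control and 3 Ni libraries of mouse BMSCs were analysed. The authors deposited whole-number read counts per gene without normalization, FPKM values of the same genes, and gene lengths. The deposited FPKM equalled the counts divided by length and by a factor per library (largest relative deviation for the 10 genes, 2.00e-10). The genome build, GRCm38, is from the submitters' processing notes; aligner, counter and strand setting are not given in the sources used here. Genes were filtered by filterByExpr, scaled with TMM and compared by the robust quasi-likelihood test of edgeR 4.0.16 in R 4.3.3, with group as the only term and Benjamini-Hochberg adjustment over all genes tested; a log2 CPM uses a prior count of 2. Intervals are 95% and come from the fit. The script was tested on simulated data. DESeq2 1.42.0, limma 3.58.1 on log2(FPKM + 1) and log2(FPKM + 0.1), other scalings and filters, a replicate block and leaving out each library were alternatives. Shares of FPKM were compared by exact two-sided permutation tests. Libraries of a group were not duplicates (chi-square per degree of freedom from 4.37 to 43.6). At a depth of 16101033 to 18642504 counts per library, the spread between replicates limited precision more than counting did: each of the 10 genes had at least 1623 counts in every library.

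The 10 genes and all lists were chosen with earlier results of these data known. Named are all 10; of each related pathway list, genes at an adjusted p under 0.05 or otherwise up to 4 with the smallest unadjusted p under 0.05; isozymes whose shares are given; and the 5 genes most correlated with the mean of the 10. Gm49759, Pgk1-rs7 and Eno1b were added because they share sequence with members. Tpi1, Pgd and Tigar were added because their groups did not overlap, and Slc16a7 as a further monocarboxylate transporter. The adipocyte list (5 genes, median log2 fold change 0.16, with 1 gene lower and none higher at an unadjusted p under 0.05) and the endothelial list (4 genes, median -0.14, with the same counts) held no pathway genes. Gapdh was not analysed here.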

Additional observations from a re-analysis of the deposited data

How the results depend on the processing

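Of the 10 genes, 9 kept a positive log2 fold change under every alternative run, and the median lay between 0.27 and 0.46 with a library left out and between 0.33 and 0.34 otherwise. The log2 fold change of Gpi1 turned positive with upper-quartile scaling (0.0021), without a filter on low counts (0.0061) and with a minimum of 10 counts per library (0.000042), and ran from -0.044 to 0.028 with a library left out, all near 0. With all genes kept, Ldha alone passed an adjusted p of 0.05 (1 of the 10 genes; log2 fold change 0.40, edgeR adjusted p = 0.0381), beside 2.55% of 25876 genes called higher. Leaving out a library gave from 0 to 7 genes at an adjusted p under 0.05. At an unadjusted p under 0.05 the number ran from 0, without control replicate 1, to 8, without control replicate 3. The share of all genes higher at that level was 4.07% and 15.2% in those fits. From 3 to 8 genes had no overlap between groups, the 8 being without control replicate 3, beside 22.2% of all genes. This count was 5 without Ni replicate 2 and 7 without Ni replicate 3, beside 17.5% and 11.4% of all genes. The share of Pfkl among phosphofructokinases differed by -1.31 to 0.252 percentage points and that of Aldoa among aldolases by -0.555 to 0.0319, so neither had a stable direction. The corresponding ranges were 4.48 to 9.55 for Slc2a1, 3.51 to 6.57 for Hk1, 3.37 to 8.39 for Hk2, 0.373 to 1.84 for Eno1 and 0.244 to 1.00 for Ldha, with the lowest value without control replicate 1 (Slc2a1, Eno1) or 2 (Hk1, Hk2, Ldha) and the highest without control replicate 3. DESeq2 called none of the 10 genes at an adjusted p of 0.05 (264 of 13593 genes in all, smallest adjusted p among the 10, 0.162). It called 7 higher at an unadjusted p under 0.05, beside 4.49% of all genes that it gave a p-value. The limma fits likewise called none and 7, beside 7.53% of all genes on log2(FPKM + 1) and 7.54% on log2(FPKM + 0.1).

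The deviations of same-numbered libraries from their group means correlated at 0.01, 0.26 and 0.14, and no label states a shared source, so the numbers were not taken to pair them. With a replicate block, 0 of the 10 genes passed an adjusted p of 0.05 (315 of all genes did). At an unadjusted p under 0.05, 7 were higher, beside 10.2% of all genes.

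With 3 libraries a group and 1 control close to the Ni libraries, none of the 10 genes passed an adjusted p of 0.05. Groups of 3 are too small for a check of outlying samples. Counting of shared sequence limits Pgk1, Eno1 and Pkm. On either strand, other genes also held 15.8% of the 50-base stretches of Gpi1, 9.26% of those of Ldha and 6.43% of those of Aldoa. Strand is unknown for Gpi1, where an annotated gene on the opposite strand covers 11.5% of exon bases.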
